A study of Mus musculus with 7 samples.

Results

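The core genes of the BCL2 family were followed in regulatory T cells (Tregs), T cells that hold immune responses in check, after an injection of a long-acting interleukin-2 (IL-2) fusion protein. The 10 genes were chosen by symbol from the 51138 genes of the count table and comprise the survival genes Bcl2, Bcl2l1 and Mcl1, the effector genes Bax and Bak1, and the BH3-only genes Bcl2l11, Bbc3, Pmaip1, Bmf and Bad. All 10 had enough counts to be tested. There were 4 samples from mice given 20 ug of FP, in which IL-2 is joined to CD25, the alpha chain of the IL-2 receptor, and 3 samples from mice given 100 uL of PBS. All mice were C57/BL6 animals with an RFP reporter of FoxP3, and Tregs were sorted from the spleen 72 h after the injection. Age, and whether each sample came from 1 mouse, are not stated in the sources at hand, so that the spread behind the p-values may be technical.

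BCL2 family proteins decide whether the outer membrane of the mitochondrion stays sealed. Bax and Bak1 encode the proteins that form pores in it and release cytochrome c, the survival proteins hold them back, and BH3-only proteins bind the survival proteins or the effectors and so promote death. IL-2 is known as a survival factor of Tregs, and Mcl1 and Bcl2l11 are known as opposing genes in the life span of these cells.

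The feature that ties the 3 classes together is the BH3 segment, a short helix through which members bind each other. The bases that code for it are shown for 9 members, 15 codons each, so that the shared part can be seen across the classes. They are read from GENCODE transcripts on GRCm38, and the capitals mark the 6 codons that begin with the conserved leucine and end with the conserved aspartate.
Bcl2 (chr1:106712569-106712613, minus strand, exon 1): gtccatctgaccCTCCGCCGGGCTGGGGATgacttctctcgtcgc
Bcl2l1 (chr2:152829691-152829735, minus strand, exon 2): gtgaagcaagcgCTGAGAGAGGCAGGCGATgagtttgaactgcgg
Mcl1 (chr3:95659424-95659468, plus strand, exon 1): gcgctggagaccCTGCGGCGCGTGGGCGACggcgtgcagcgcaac
Bax (chr7:45465991-45466035, minus strand, exon 3): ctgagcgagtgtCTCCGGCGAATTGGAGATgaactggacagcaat
Bak1 (chr17:27022525-27022569, minus strand, exon 4): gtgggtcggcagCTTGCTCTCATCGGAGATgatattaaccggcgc
Bcl2l11 (chr2:128147138-128147182, plus strand, exon 3): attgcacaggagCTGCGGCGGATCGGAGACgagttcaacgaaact
Bbc3 (chr7:16313761-16313805, plus strand, exon 3): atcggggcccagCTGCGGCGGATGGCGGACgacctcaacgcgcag
Bmf (chr2:118545094-118545138, minus strand, exon 4): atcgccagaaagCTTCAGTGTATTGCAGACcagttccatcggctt
Bad (chr19:6950780-6950824, plus strand, exon 3): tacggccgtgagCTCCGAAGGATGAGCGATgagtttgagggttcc
The leucine is written as CTG, CTC or CTT and the aspartate as GAT or GAC in all 9. The codon before the aspartate codes for glycine in the survival and effector genes and in Bcl2l11, for alanine in Bbc3 and Bmf, and for serine in Bad.

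The libraries held 9956509 to 13429878 counts. The Treg label fitted its markers, which were present in both groups. Foxp3 was at 540 ± 52.9 CPM in FP samples and 491 ± 7.24 CPM in PBS samples (SD, n = 4 and 3). CPM are counts scaled to a common library depth, here with TMM factors. The groups overlapped for Foxp3, whereas Il2ra, Ikzf2, Ctla4 and Tnfrsf18 lay higher in every FP sample than in any PBS sample. Together the 5 Treg markers summed to 4065 to 4691 CPM in FP samples and 2251 to 2475 CPM in PBS samples. Markers of monocytes and macrophages moved with the groups: all 12 were lower after FP, with a summed level of 22.8 to 115 CPM in FP samples and 580 to 1440 CPM in PBS samples. None of the 12 was at 0 in every library. Dendritic cell markers summed to 11.7 to 15.7 CPM in FP samples and 24.4 to 35.6 CPM in PBS samples. Markers of cell division moved the other way, with 5 genes summing to 1523 to 2940 CPM in FP samples and 77.6 to 111 CPM in PBS samples. The summed level of 8 B cell markers was 24.7 to 33.4 CPM in FP samples and 25.2 to 48.2 CPM in PBS samples. The part of these cells and states in the results on the BCL2 family was not tested. In such bulk samples, fewer cells of a type and less RNA per cell cannot be told apart.

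The comparison asked how the transcripts of the family in these Tregs differed after FP. Of the 10 genes, 3 rose (Bak1, Bad and Pmaip1) and 3 fell (Bbc3, Bmf and Bcl2l11) at an adjusted p under 0.05 in edgeR's quasi-likelihood test, whereas the 3 survival genes and Bax did not pass. Over all 15954 genes tested 39.5% passed, 21.0% as higher and 18.5% as lower, so 6 of 10 is to be read against a background in which many genes changed. The ranges of the groups did not overlap for 6 of the 10 genes and for 46.7% of all genes tested. The median log2 fold change was -0.05 over the 10 genes and -0.05 over all genes. The calls of Bak1 and Bbc3 held under all 15 alternative settings, while Bcl2l11 and Pmaip1 lost theirs under 7 of them each.

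**Figure D1:**
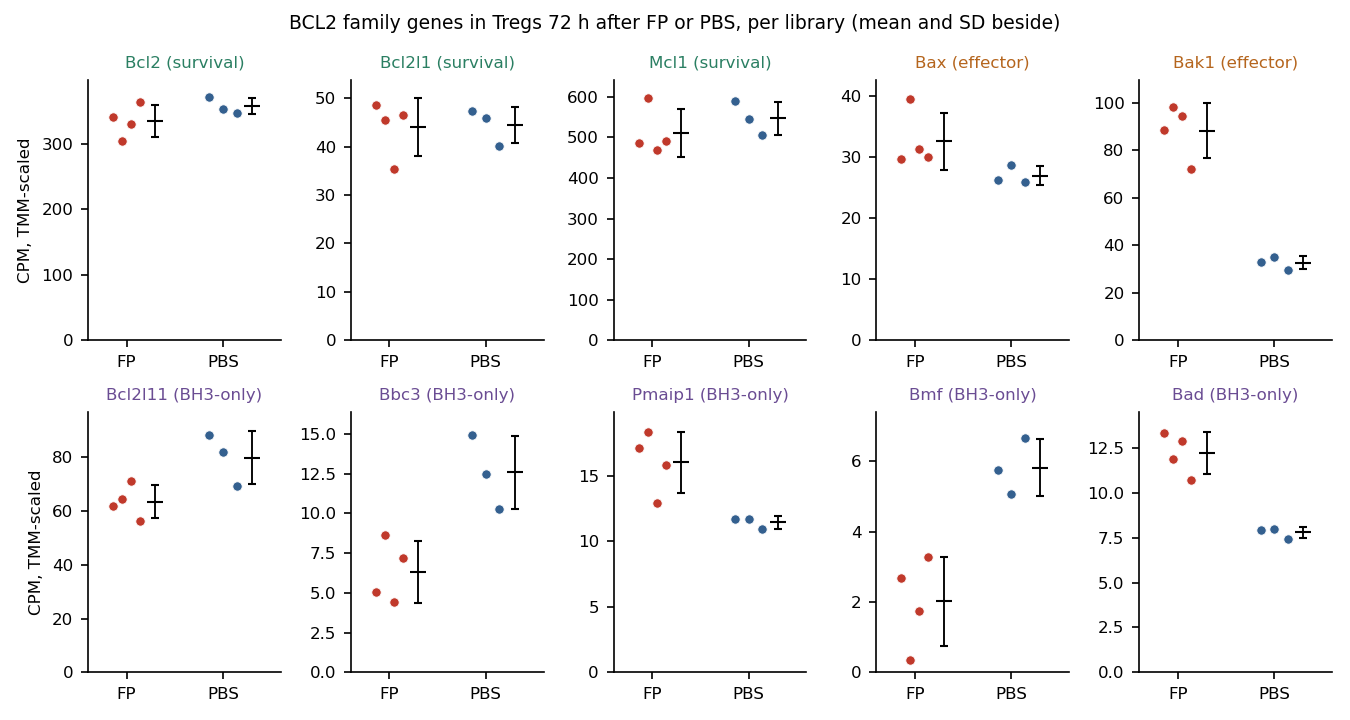
CPM scaled with TMM factors (y axis, from 0) of the 10 BCL2 family genes in the 4 FP libraries (red) and the 3 PBS libraries (blue), with the mean and SD of each group in black. Bak1 sits at 72.0 to 98.2 CPM in FP libraries and 29.6 to 35.1 CPM in PBS libraries, while the libraries of both groups overlap for Bcl2, Bcl2l1 and Mcl1.

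The survival genes showed no change that passed the test. Bcl2 (ENSMUSG00000057329.7, GRCm38 chr1:106538178-106714274, minus strand), the founding survival gene of the family, measured 341, 305, 330 and 364 CPM in FP samples and 372, 354 and 348 CPM in PBS samples. The FP samples reached lower, and the groups overlapped. The log2 fold change was -0.10 (SE 0.09, adjusted p = 0.424 by edgeR). Mcl1 (ENSMUSG00000038612.16, chr3:95658788-95663176, plus strand), which encodes a short-lived survival protein, measured 487, 598, 468 and 492 CPM in FP samples and 589, 545 and 507 CPM in PBS samples. The highest value was that of FP replicate 2 and the other FP samples lay below all PBS samples. Its log2 fold change was -0.10 (SE 0.11, adjusted p = 0.503 by edgeR). Bcl2l1 (ENSMUSG00000007659.18, chr2:152780668-152831728, minus strand), which encodes BCL-XL, measured 48.7, 45.6, 35.3 and 46.5 CPM in FP samples and 47.3, 45.9 and 40.2 CPM in PBS samples. Only FP replicate 3 lay outside the range of the PBS samples on the low side. Its log2 fold change was -0.01 (SE 0.13, adjusted p = 0.937 by edgeR). Bcl2l1, Mcl1 and Bcl2l11 are spliced into forms of different action, which counts per gene do not separate. Bcl2 shares 558 exon bases (6.09%) with D630008O14Rik on the opposite strand, which measured 10.3 to 19.5 CPM in FP samples and 15.8 to 18.7 CPM in PBS samples.

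The survival genes depended on how libraries were scaled. Under upper-quartile scaling and under scaling by library size only, Bcl2 passed as lower (-0.29 and -0.36, adjusted p = 0.0438 and 0.0459 by edgeR), and so did Mcl1 (-0.30 and -0.37, adjusted p = 0.021 and 0.0219 by edgeR). Under them the median over all genes was itself -0.25 and -0.31. Relative to that median, Bcl2 stood at -0.04 and Mcl1 at -0.05 under both scalings, and under TMM factors at the same -0.04 and -0.05.

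Both effector genes lay higher in every FP sample than in any PBS sample, Bak1 passed the test, and it had the smallest p of the 10 genes. Bak1 (ENSMUSG00000057789.13, chr17:27019810-27029009, minus strand), whose protein sits in the outer mitochondrial membrane of healthy cells, measured 88.5, 98.2, 94.4 and 72.0 CPM in FP samples and 32.9, 35.1 and 29.6 CPM in PBS samples. Every FP sample lay more than 2-fold above every PBS sample. It rose 2.71-fold (log2 fold change 1.44, SE 0.13, adjusted p = 2.13e-05 by edgeR). Its log2 fold change ran from 1.16 to 1.53 across the 15 alternatives. The lowest of the FP samples for Bak1 was replicate 4, which also had the lowest sum of division markers. That sum was 1523 CPM against 2634 to 2940 CPM in the other FP samples. The sums of T cell markers (2490 CPM) and Treg markers (4065 CPM) in replicate 4 were also the lowest among FP samples. Its Ikzf2 was the highest of them (1809 CPM). The part of division or of other traits of this sample in the level of Bak1 was not tested. Bak1 shares 437 of its exon bases (18.2%) with Ggnbp1 on the opposite strand. Ggnbp1 measured 3.01 to 4.42 CPM in FP samples and 4.86 to 6.16 CPM in PBS samples, far below Bak1, and did not pass (log2 fold change -0.56, adjusted p = 0.0564 by edgeR).

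Bax (ENSMUSG00000003873.11, chr7:45461697-45466898, minus strand), whose protein moves from the cytosol to the mitochondrion when activated, measured 29.6, 39.5, 31.3 and 30 CPM in FP samples and 26.2, 28.7 and 25.9 CPM in PBS samples. The FP samples all lay above the PBS samples, 3 of them by a small margin. Its log2 fold change was 0.27 (SE 0.13) and did not pass (adjusted p = 0.117 by edgeR). With library size alone it was 0.00, which is 0.32 above the median of all genes under that scaling, as it is under TMM factors. Bax shares 192 exon bases with the gene model Gm45808 on its own strand, which had 0 counts in every library. The per-length ratio of Bak1 to Bax is free of library scaling. It was 1.96, 1.63, 1.97 and 1.57 in FP samples and 0.82, 0.802 and 0.748 in PBS samples, so that Bak1 was the more abundant effector transcript in every FP sample and Bax in every PBS sample.

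**Figure D2:**
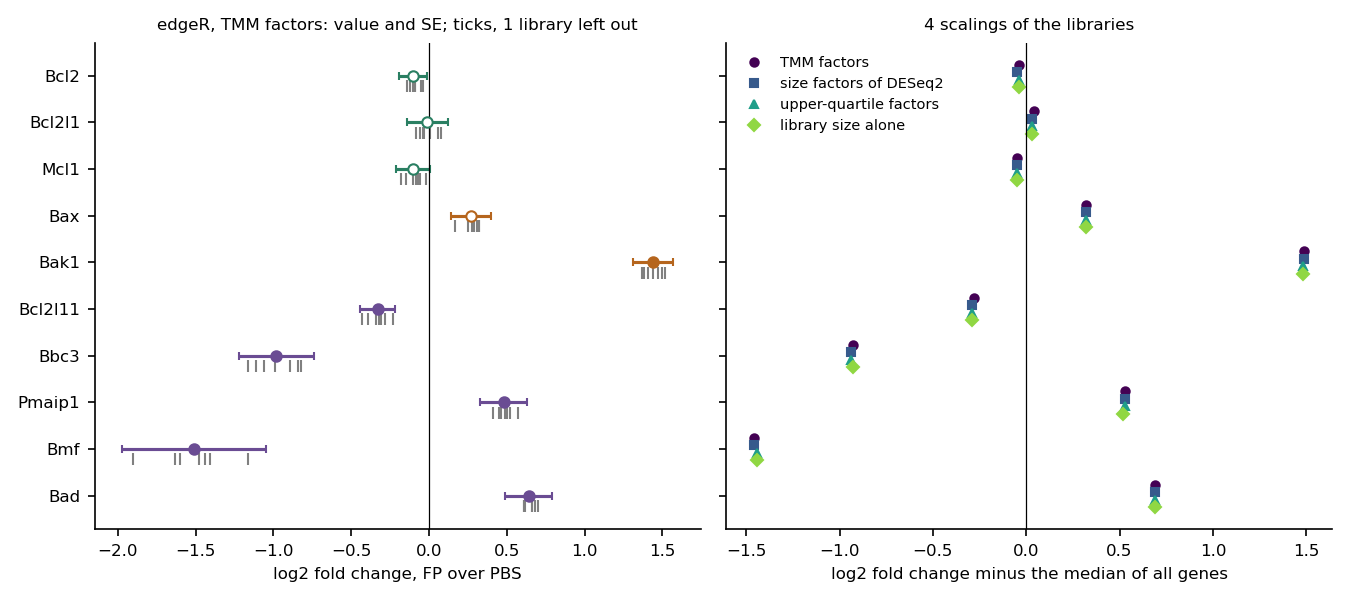
Log2 fold changes, FP over PBS, of the 10 genes. Left, the edgeR value with its SE (filled where adjusted p is under 0.05) and, as grey ticks, the values with each library left out; right, the value minus the median of all genes under 4 scalings. Relative to that median Bak1 stands at 1.48 to 1.49, Bmf at -1.46 to -1.44 and Bcl2 at -0.05 to -0.04 under all 4 scalings.

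The BH3-only genes moved in both directions: 3 of 5 fell and 2 rose. Bbc3 (ENSMUSG00000002083.13, chr7:16308393-16318205, plus strand) encodes PUMA, a p53 target that binds all survival proteins. It measured 5.05, 8.61, 4.40 and 7.20 CPM in FP samples and 14.9, 12.5 and 10.3 CPM in PBS samples, from 47, 97, 48 and 101 counts in FP samples and 169, 170 and 118 counts in PBS samples. The FP samples all lay below the PBS samples. For Bbc3 the log2 fold change was -0.98 (SE 0.24, adjusted p = 0.0089 by edgeR), with a range of -1.25 to -0.82 across the 15 alternatives.

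Bmf (ENSMUSG00000040093.15, chr2:118528757-118549687, minus strand), whose protein is held at the cytoskeleton through dynein light chain 2, was the least abundant member. It measured 2.69, 0.355, 1.74 and 3.28 CPM in FP samples and 5.74, 5.06 and 6.66 CPM in PBS samples. These values rest on 25, 4, 19 and 46 counts in FP samples and 65, 69 and 76 counts in PBS samples, so that the FP level is coarse. The groups did not overlap, and the FP samples differed among themselves by more than the PBS samples did. Its log2 fold change was -1.51 (SE 0.46, adjusted p = 0.0255 by edgeR). The call was lost without FP replicate 3 (adjusted p = 0.0585 by edgeR), PBS replicate 1 (0.0638), PBS replicate 2 (0.0556) or PBS replicate 3 (0.0937).

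Bcl2l11 (ENSMUSG00000027381.16, chr2:128126038-128162547, plus strand) encodes BIM, the BH3-only protein best known for the removal of lymphocytes deprived of cytokine. It measured 61.9, 64.5, 71.0 and 56.3 CPM in FP samples and 88.3, 82.1 and 69.3 CPM in PBS samples. The groups overlapped, because FP replicate 3 lay above PBS replicate 3. Its log2 fold change was -0.33 (SE 0.11, adjusted p = 0.0368 by edgeR), with adjusted p = 0.103 in DESeq2 and 0.0514 in edgeR with the size factors of DESeq2. The call was lost without FP replicate 1, 2 or 4 (adjusted p = 0.0769, 0.0612 and 0.0562 by edgeR) and without PBS replicate 1 or 2 (0.176 and 0.125).

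The 3 genes that fell had the direction of the macrophage markers, which summed to 580, 1440 and 992 CPM in PBS replicates 1, 2 and 3. In the same samples, as given above, Bbc3 and Bcl2l11 were highest in replicate 1 and lowest in replicate 3, and Bmf was highest in replicate 3 and lowest in replicate 2. With 3 samples the part of these cells in the 3 genes was not tested.

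Bad (ENSMUSG00000024959.13, chr19:6941861-6951899, plus strand), whose protein is held inactive by 14-3-3 proteins when phosphorylated, measured 13.3, 11.9, 12.9 and 10.7 CPM in FP samples and 7.95, 7.99 and 7.44 CPM in PBS samples. The groups did not overlap. It rose 1.56-fold (log2 fold change 0.64, SE 0.15, adjusted p = 0.00728 by edgeR), but not with libraries scaled by size alone (0.37, adjusted p = 0.0907 by edgeR). Bad shares 524 of its exon bases (20.5%) with Gpr137 on the opposite strand. Gpr137 measured 3.76 to 6.49 CPM in FP samples and 6.89 to 6.98 CPM in PBS samples and did not pass (log2 fold change -0.37, adjusted p = 0.185 by edgeR).

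Pmaip1 (ENSMUSG00000024521.7) encodes NOXA, a p53 target that binds MCL1 in preference to BCL2. It measured 17.1, 18.3, 12.9 and 15.8 CPM in FP samples and 11.7, 11.7 and 10.9 CPM in PBS samples. All FP samples lay above the PBS samples, with FP replicate 3 nearest to them. It rose 1.40-fold (log2 fold change 0.48, SE 0.15, adjusted p = 0.0289 by edgeR). Scaled by upper quartile or by library size only it did not pass (0.28 and 0.21, adjusted p = 0.144 and 0.285 by edgeR), while relative to the median of all genes it stood at 0.53 and 0.52. It also missed the threshold without FP replicate 1 or 2 (adjusted p = 0.0539 and 0.0666 by edgeR) and without any single PBS sample (0.0509 to 0.108).

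Levels can be compared between genes per kilobase of exon, with a limit. The lengths include exon bases shared with other genes, 18.2% for Bak1, 20.5% for Bad, 12.2% for Bax and 6.09% for Bcl2. How reads from shared bases were assigned is not known. Their part in the levels, shares and ratios between genes was not tested. In both groups Mcl1 was the most abundant transcript of the family, at 150 ± 17.3 CPM per kb in FP samples and 160 ± 12.1 CPM per kb in PBS samples (SD, n = 4 and 3). Next in FP samples came Bak1 (36.7 ± 4.8) and Bcl2 (36.6 ± 2.68), which did not differ beyond their spread, then Bax (20.7 ± 2.96). Next in PBS samples came Bcl2 (39.1 ± 1.37), Bax (17.1 ± 0.952) and Bak1 (13.5 ± 1.15). The order depends on the length used. Per kilobase of the longest transcript, Bak1 was at 37 CPM per kb in FP samples, below Bcl2 at 46.6, and at 13.6 CPM per kb in PBS samples, below Bcl2l1 at 17.3 and Bcl2l11 at 15.9. Bcl2l1 and Bcl2l11 stood side by side, at 9.60 ± 1.29 and 7.90 ± 0.756 CPM per kb in FP samples and at 9.69 ± 0.816 and 9.95 ± 1.21 CPM per kb in PBS samples. The remaining BH3-only genes were lower. Pmaip1 was at 5.86 ± 0.846, Bad at 4.77 ± 0.458, Bbc3 at 2.97 ± 0.916 and Bmf at 0.384 ± 0.243 CPM per kb in FP samples. In PBS samples the order differed, with Bbc3 at 5.92 ± 1.08, Pmaip1 at 4.19 ± 0.158, Bad at 3.05 ± 0.119 and Bmf at 1.11 ± 0.153 CPM per kb. By longest transcript Bad stood above Pmaip1, at 7.96 against 5.87 CPM per kb in FP samples and at 5.08 against 4.2 CPM per kb in PBS samples.

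The balance between the classes was described as the share of each in the summed per-length level of the 10 genes, which does not depend on library scaling. Effector genes held 20.7%, 21.4%, 22.7% and 18.6% in FP samples and 10.8%, 12.3% and 11.7% in PBS samples. Survival genes held 71.1%, 71.0%, 69.3% and 73.5% in FP samples and 79.7%, 78.4% and 79.5% in PBS samples. BH3-only genes held 8.23%, 7.64%, 8.06% and 7.95% in FP samples and 9.46%, 9.22% and 8.83% in PBS samples. The groups did not overlap in any of the 3 shares, and the effector share differed by 9.21 percentage points. The shares of a library are parts of the same whole, so they are not separate results. Within the effector genes, Bak1 stood at 36.7 CPM per kb in FP samples and 13.5 in PBS samples, and Bax at 20.7 and 17.1. In CPM per kb, the effector genes summed to 57.4 ± 7.05 in FP samples and 30.6 ± 2.03 in PBS samples, while the sums of the survival genes (196 ± 16 and 209 ± 14.2) and of the BH3-only genes (21.9 ± 1.18 and 24.2 ± 2.42) overlapped between FP and PBS samples (SD, n = 4 and 3). No test was made of these sums.

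Ratios within a library were also formed, and that with Bak1 reflects the same rise of Bak1 as the effector share. The per-length ratio of Bcl2 to Bak1 was 1.01, 0.817, 0.919 and 1.33 in FP samples and 2.98, 2.65 and 3.09 in PBS samples, with no overlap. The ratio of Bcl2 to Bcl2l11, a survival gene over its BH3-only opponent, was 4.84, 4.15, 4.08 and 5.67 in FP samples and 3.69, 3.78 and 4.41 in PBS samples, and the groups overlapped. The ratio of Pmaip1 to Bbc3, both p53 targets, was 2.63, 1.65, 2.28 and 1.70 in FP samples and 0.607, 0.732 and 0.824 in PBS samples. Bbc3 was the more abundant of this pair in every PBS sample and Pmaip1 in every FP sample.

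**Figure D3:**
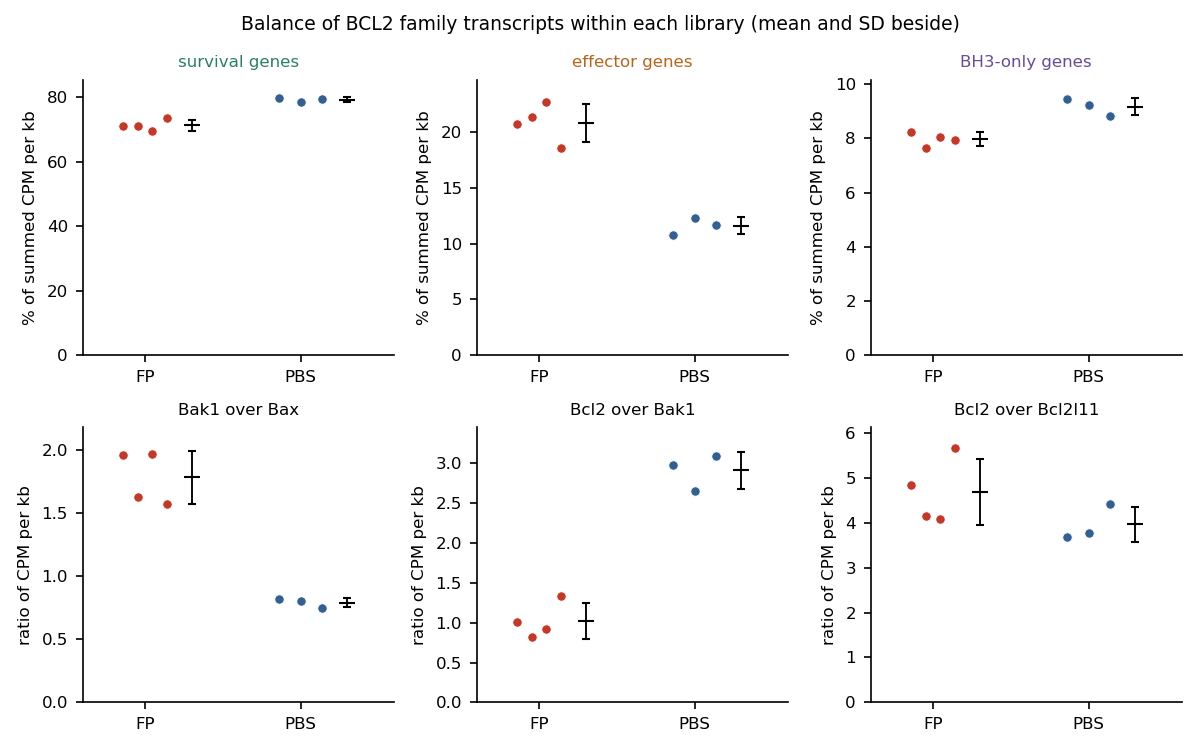
Top, share (%) of the summed CPM per kb of the 10 genes held by survival, effector and BH3-only genes in each FP library (red) and PBS library (blue), with mean and SD; bottom, ratios of CPM per kb between members. The effector share is 18.6 to 22.7% in FP libraries and 10.8 to 12.3% in PBS libraries, and the ratio of Bcl2 to Bcl2l11 overlaps between the groups.

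FOXO transcription factors are known regulators of Bbc3 and Bcl2l11, and the letters GTAAACA of their motif were searched in the promoter windows of 9 members. The 2 windows that hold them are shown. They are from RefSeq on GRCm38.p6 and run from 250 bases before to 50 after a gene start. Capitals mark the motif, read on either strand.
Bcl2l11 (chr2:128125788-128126087, plus strand): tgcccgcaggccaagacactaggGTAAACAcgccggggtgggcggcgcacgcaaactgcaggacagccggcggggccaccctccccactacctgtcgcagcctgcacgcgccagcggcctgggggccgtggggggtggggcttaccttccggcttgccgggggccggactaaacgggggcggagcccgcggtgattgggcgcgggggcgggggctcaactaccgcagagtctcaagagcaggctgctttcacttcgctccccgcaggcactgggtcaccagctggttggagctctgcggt
Bbc3 (chr7:16310011-16310310, plus strand): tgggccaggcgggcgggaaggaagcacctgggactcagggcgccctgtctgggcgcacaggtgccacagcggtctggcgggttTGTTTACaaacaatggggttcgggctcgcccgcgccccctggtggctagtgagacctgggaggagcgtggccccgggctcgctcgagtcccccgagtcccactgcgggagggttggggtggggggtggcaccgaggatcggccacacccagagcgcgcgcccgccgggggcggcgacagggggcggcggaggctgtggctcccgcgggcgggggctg
The motif begins 227 bases before the start for Bcl2l11 and 167 bases before it for Bbc3, where it reads TGTTTAC on the strand shown. It is found in 1 of 2 windows of Bcl2l11 and in 1 of 3 windows of Bbc3, in none of the 3 windows of Bmf, which fell the most, in no window of the other 6 members examined, and in 3.65% of all 32851 windows. The motif TTCNNNGAA of STAT proteins (8.30% of all windows) and the motif of interferon regulatory factors (3.44%) were in no window of these 9 members. The E2F motif TTTNNCGC (5.17%) was in 1 window of Bcl2l1. All were searched on both strands, and the FOXO and E2F matches lay in different windows. A match describes these letters only.

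Among 13 transcription factors known to act on the members, 3 rose, 2 fell and 8 did not pass, which is 38.5% called beside 39.5% over all genes. The count of 5 became 2 without PBS replicate 2 or 3, 3 without PBS replicate 1 or FP replicate 1 or 3, in DESeq2 and with no filter, and 9 with upper-quartile or library-size scaling. Trp53 itself, chosen after its value was seen, measured 111 ± 7.34 CPM in FP samples and 116 ± 5.59 CPM in PBS samples (log2 fold change -0.07, adjusted p = 0.56 by edgeR). Scaled by upper quartile or by library size only, it passed as lower (-0.27 and -0.34), beside medians of -0.25 and -0.31 over all genes. Its relative Trp73 rose to 3.33 ± 1.22 CPM in FP samples, against 0.156 ± 0.119 CPM in PBS samples, where it had 6 counts in all. On the log2 scale, E2f1, the cell cycle factor, rose by 3.15, and Nfkb1 by 0.33. On the same scale Stat5a, which carries the IL-2 signal, fell by 0.29. Foxo1, chosen after its value was seen, fell by 0.26 (adjusted p = 0.0387 by edgeR). The Foxo1 call was lost without any single library (adjusted p = 0.0512 to 0.18 by edgeR), that of Stat5a under 7 of the 15 alternatives, and that of Nfkb1 under 4, among them upper-quartile scaling (0.13) and library size only (0.06).

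Of 12 other p53 targets tested, 7 rose and 2 fell, with a median log2 fold change of 0.41 against -0.05 over all genes, and 75% called beside 39.5%. The count of 9 became 4 without PBS replicate 2 or 3, 5 without PBS replicate 1 and 5 with library size only. On the log2 scale, Cdkn1a, which encodes the cell cycle inhibitor p21, rose by 4.60, Phlda3 by 1.53, Ccng1 by 0.59 and Ei24 by 0.51. In PBS samples Cdkn1a had 19 counts in all and Phlda3 35, so that their fold changes rest on low PBS levels. Btg2 (-0.36) and Sesn1 (-0.26) fell, and lost their calls in 7 and 6 of the 15 alternatives; both were named with their values in view. Among the core members that passed the test, the p53 targets Pmaip1 and Bbc3 went in opposite directions.

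Few of the other members of the BCL2 family passed. Of 16 listed, 12 were tested and 1 rose, Becn1, a regulator of autophagy (log2 fold change 0.36, adjusted p = 0.019 by edgeR). Its call was lost in 4 of the 15 alternatives, among them upper-quartile factors (0.16) and library size alone (0.09). Becn1 shares 3104 of its exon bases (43.9%) with Cntd1 on the opposite strand, and the part of Cntd1 in its counts was not tested. Bid, chosen after its value was seen, is the BH3-only gene that links death receptors to mitochondria. It measured 28.6 ± 2.15 CPM in FP samples and 24.8 ± 0.848 CPM in PBS samples and did not pass (log2 fold change 0.20, adjusted p = 0.165 by edgeR, and -0.07 with library size alone). The count for this list was 1 of 12 (8.33%), beside 39.5% over all genes. It was 0 to 2 with each library left out, and 2 with upper-quartile or library-size scaling, in DESeq2 and with no filter. Bcl2a1a, Bcl2a1b and Bcl2a1d are near-identical copies whose counts are uncertain.

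Of 17 genes of the apoptosome, the caspases and their inhibitors, 7 rose and 1 fell (median 0.18), which is 47.1% called beside 39.5% over all genes. The count was 5 without PBS replicate 3 and 5 with no filter on low counts. Apaf1, the scaffold of the apoptosome, measured 85.9 to 103 CPM in FP samples and 54.2 to 61.8 CPM in PBS samples and rose (log2 fold change 0.70, SE 0.10, adjusted p = 0.000376 by edgeR). Casp9, the initiator that Apaf1 activates, is named with its value in view and did not pass (-0.22, adjusted p = 0.267 by edgeR), but was called lower when scaled by upper quartile (-0.42) or library size only (-0.48). The median over all genes was itself -0.25 and -0.31 under these scalings, and -0.05 with TMM factors. Birc5, whose protein survivin acts in chromosome segregation, rose by a log2 fold change of 5.30. The inhibitor gene Birc3, named with its value in view, fell (-0.29). Birc3 lost its call in 8 of the 15 alternatives.

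In the death receptor pathway 4 of 11 genes rose and 2 fell (median log2 fold change 0.20). That is 54.5% called beside 39.5% over all genes. The changes given next are on the same log2 scale. Casp8, the initiator caspase of this pathway, rose by 0.66, Ripk1 by 0.68 and the death ligand gene Tnfsf10 by 0.79. Cflar, whose protein restrains caspase 8 and which was chosen after its value was seen, measured 190 ± 25.9 CPM in FP samples and 273 ± 10.6 CPM in PBS samples and fell by 0.53 (SE 0.11, adjusted p = 0.00423 by edgeR). Its call and those of Casp8, Ripk1 and Tnfsf10 held in all 15 alternatives. Tnfrsf21, a death domain receptor gene, had the largest fall of this list (-4.0). It measured 0.458 to 1.51 CPM in FP samples and 5.56, 20 and 16.1 CPM in PBS replicates 1, 2 and 3, where the macrophage markers summed to 580, 1440 and 992 CPM, and the part of those cells was not tested.

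Of 18 genes whose proteins bind or turn over the members, 12 rose and 1 fell (median log2 fold change 0.52). That is 72.2% called beside 39.5% over all genes. Changes of single genes below are also log2 fold changes. Among the 14-3-3 genes, whose proteins hold BAD, Ywhae rose by 1.19 and Ywhah by 1.13. Pim1 rose by 1.28 and Akt1 by 0.89; both encode kinases that phosphorylate BAD. Dynll1 (1.05) and Dynll2 (0.59), the dynein light chains that hold BIM and BMF, also rose, and both were chosen after their values were seen. Dynll1 lost its call in 5 and Dynll2 in 1 of the 15 alternatives. Huwe1, a ubiquitin ligase of MCL1 and chosen after its value was seen, fell by 0.24 and lost its call in 10 of them.

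**Figure D4:**
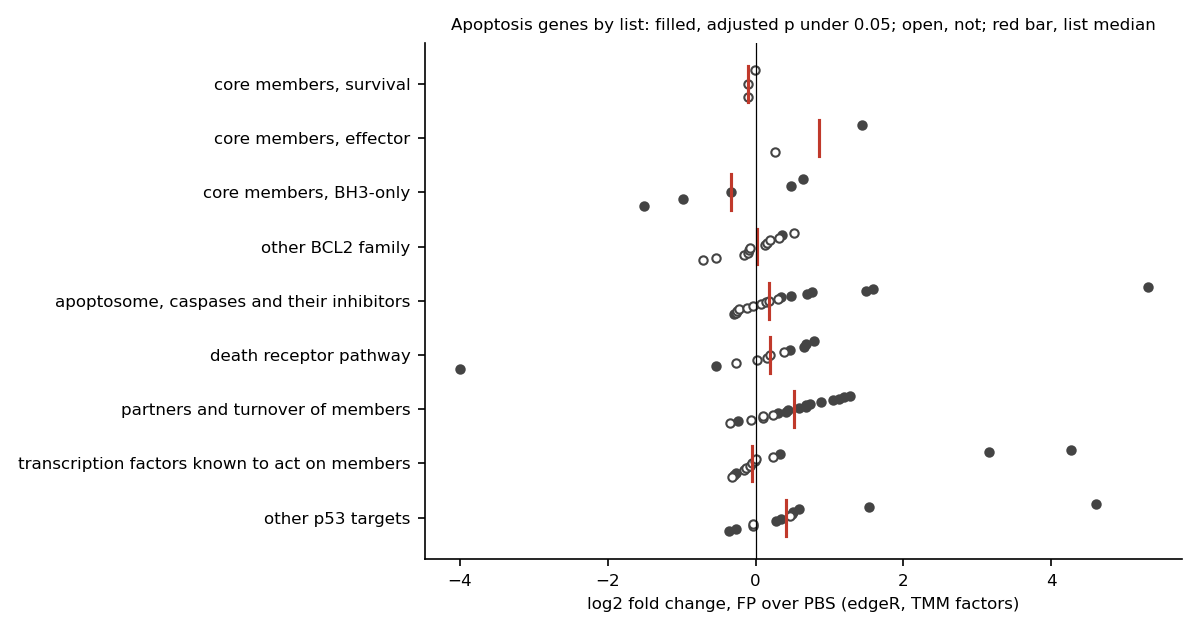
Log2 fold changes, FP over PBS, of the tested genes in the 3 classes of core members and in the 6 other apoptosis lists (1 dot a gene, filled where adjusted p is under 0.05, red bar for the list median). The 3 survival genes sit at -0.10 to -0.01, the BH3-only genes spread from -1.51 to 0.64, and the list of partners has the highest median of the 6 other lists, 0.52.

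The profiles of the members that passed were set beside those of 9385 other genes over the 7 libraries, as the root mean square difference of log2 CPM centred on each gene's mean. Closest to Bak1 were E2f3 (0.05), a transcription factor of the cell cycle, Pold1 (0.08), a subunit of a replicative DNA polymerase, and Rcc1 (0.08), with log2 fold changes of 1.39, 1.41 and 1.43. Closest to Bad were Mfsd10 (0.03), Taf6 (0.05) and Stk39 (0.05). Closest to Bbc3 were Rab6b (0.14), Trpm1 (0.15) and the circadian clock gene Per2 (0.16), and closest to Bcl2l11 were Slc41a1 (0.05), Gid4 (0.06) and Top3a (0.07). Pmaip1 was closest to Spast (0.06), Tmem101 (0.06) and Eci1 (0.07). No gene followed Bmf closely, the nearest being Tmem91 at 0.44. Bmf had 4 to 46 counts in FP samples, and the part of counting error in this distance was not tested. Candidates had a mean of at least 5 CPM, while Bmf was at 2.02 CPM in FP samples and 5.82 CPM in PBS samples.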

How the data were processed

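RNA was sequenced on a NextSeq 500 from libraries made of 25 ng of total RNA after removal of ribosomal RNA, per the labels. The authors mapped reads to GRCm38 with STAR (2.5.0 in the design text, 2.5.0b in the submitters' processing notes) and assigned them to genes of GENCODE M13 by featureCounts 1.5.0. No strand setting is given in the sources used here. Values in the table deposited by the authors are unnormalized counts, and each of the 7 columns was matched to its sample by name. The authors called genes with DESeq2, per the design text.

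Counts were analysed here with edgeR 4.0.16 (R 4.3.3): filterByExpr, TMM factors and the robust quasi-likelihood test, with Benjamini-Hochberg adjustment over 15954 genes and a threshold of 0.05. DESeq2 1.42.0, limma-voom (limma 3.58.1), other scalings and filters, a replicate block and the removal of each library were alternatives. A count of 0 allows up to 3 counts, 0.214 to 0.322 CPM per library, and this covers counting error only. Positions, exon lengths and BH3 codons came from GENCODE M21 on GRCm38. Symbols were found for 50376 gene identifiers.

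The members and lists were chosen with earlier results of these data known. Named genes were the members, up to 4 called genes of each other list with the smallest p, and the 3 nearest profiles of each called member; others are marked as chosen after their values were seen, and a few genes are not reported here. Profiles used log2(CPM + 0.5) of protein-coding genes with a mean of at least 5 CPM. BH3 segments were found in the translated coding sequence as leucine, any 3 residues, then glycine, alanine or serine, then aspartate, then aspartate, glutamate, glycine, lysine or glutamine, then phenylalanine, leucine, isoleucine or valine, with 1 match per protein. Replicate numbers were not taken as pairs.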

Additional observations from a re-analysis of the deposited data

Results flagged for a closer look

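The per-length ratio of Mcl1 to Bcl2 in FP replicate 2 was 5.25, apart from the other FP samples at 3.62 to 3.82. It was the only one of 23 values examined for a sample far from the rest of the 4 FP samples (gap over range 0.878, above the 95% critical value), where chance marks about 1 in 20. PBS samples, being 3, were not examined in this way.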

How the results depend on the processing

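With each library left out, 4088 to 7277 genes passed against 6308 with all, the lowest without PBS replicate 3. Of the 10 core members 3 to 5 passed against 6, with 3 without PBS replicate 1 and 3 without PBS replicate 2, while Bak1, Bbc3 and Bad passed each time. Of the genes in the other lists 26 to 39 passed against 42, the lowest without PBS replicate 3; these fits have fewer samples. The differences in class shares kept their direction and stayed within the spread between replicates with each library left out and with the longest transcript as length (8.66 percentage points for the effector genes). The direction of Bcl2l1 is undecided: it was 0.00 with DESeq2 size factors, 0.02 in DESeq2, 0.01 with no filter and -0.08 to 0.08 with each library left out. Bid turned to -0.00 (upper quartile) and -0.07 (library size only), and the cause was not tested. The median over all genes was -0.25 and -0.31 under these scalings, and -0.05 with TMM factors. These scalings gave 33.2% and 28.6% of calls as higher, beside 53.2% with TMM factors.

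Deviations of same-numbered samples had correlations of 0.219, 0.0702 and 0.0966 across genes for numbers 1 to 3, all positive but not all over 0.1. The largest of all pairs was 0.394, between FP replicate 4 and PBS replicate 3, and FP replicate 2 correlated best with PBS replicate 1 (0.208). With the replicate block 7870 genes and 7 of the 10 members passed, the added one being Bax (log2 fold change 0.31, adjusted p = 0.0469 by edgeR). Number 4 exists only among FP samples, so FP replicate 4 adds nothing to the difference between groups in this fit. With FP replicate 4 left out and no block, 7277 genes and 5 of the 10 members passed. The parts of the block and of this sample in the added calls were not separated. At the lowest counts, those of Bmf, depth limits the precision.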
